A study of Mus musculus with 6 samples.

Results

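The genes described here are the matrix proteases of the Mmp (matrix metalloproteinase) and Adamts families, the Timp genes that encode tissue inhibitors of metalloproteinases, the Adamts-like genes, and the lysyl oxidases. They were chosen by symbol, as every gene whose symbol is Mmp or Timp followed by a number, starts with Adamts, or is Lox or Loxl with a number, with at least 10 counts summed over the libraries. The symbols matched 56 genes, and 52 of them passed, out of 55491 genes in the table and 32664 genes with any count. These were 19 Mmp, 4 Timp, 19 Adamts, 5 Adamtsl, and 5 Lox genes. Mmp1a and Mmp1b had 0 counts, and Mmp10 and Mmp21 had 5 each and stayed out, while Mmp20 with 10 counts and Mmp24 with 13 were the lowest that entered. At least 10 counts in every library were found for 49 of the 52.

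RNA came from the inguinal white adipose tissue (IWAT) of 3 Ebf2+/+ and 3 Ebf2 E165X/+ mice, as 1 library per mouse. All of them were males on the C57BL/6J background, 4 weeks old and fed regular chow. The Ebf2 E165X/+ mice carried 1 knock-in allele, made by CRISPR/Cas9 editing, with a stop codon in Ebf2, a transcription factor of the adipocyte lineage. The allele is present in every cell of the animal, so it is not limited to adipose cells. Ebf2 itself stood at 38.3, 41.3, and 37.2 CPM (the count relative to the TMM-scaled library size) in Ebf2+/+ mice and at 22.8, 22.9, and 21.1 CPM in those with the allele, lower in all of the mice labelled as carriers. Library totals ran from 106820505 to 135039488 counts. The adipocyte marker Adipoq was found in every library, at 820 to 1303 CPM, and Pdgfra, a marker of adipocyte progenitors, at 106 to 154 CPM.

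The third E165X/+ library stood apart. Its 8 skeletal muscle markers summed to 36767 CPM, or 3.49% of its counts, while the other 5 libraries held 621 to 6391 CPM. Acta1, skeletal muscle actin, was the most abundant of them there at 11529 CPM, against 182 to 1713 CPM elsewhere, and none of the 8 was at 0 in any library. For the genes that were highest in it by a wide margin, the log2 fold change without this library is also given.

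Matrix metalloproteinases are zinc enzymes that cut collagens, elastin, and other matrix proteins, and TIMP proteins block their active site. ADAMTS enzymes are secreted relatives with thrombospondin repeats that trim procollagens and cut proteoglycans, and ADAMTS-like proteins carry such repeats without the catalytic domain. Lysyl oxidases act in the opposite direction, since they oxidize lysines of collagen and elastin so that fibres become cross-linked. In white adipose tissue these enzymes are made largely by stromal cells and are known for their part in tissue expansion and fibrosis.

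The 52 genes took 0.242% to 0.323% of the counts of a library. On average over the 6 libraries, 10 genes stood at 100 CPM or more, 19 between 10 and 100, 16 between 1 and 10, and 7 below 1 CPM, and the 10 most counted genes held 75.7% of the counts of the set. They were Timp2, Timp3, Mmp2, Adamts2, Adamts12, Loxl2, Mmp14, Adamts5, Loxl1, and Lox. Levels are compared between genes as CPM per kilobase of exon. On that scale, in Ebf2+/+ mice, Timp2 was first at 105, followed by Mmp2 at 69.1, Loxl1 at 42.9, Timp3 at 38.5, Loxl2 at 31.5, Mmp14 at 25.7, and Lox at 24.5. The sample labels name an NEB kit and the study's methods a 3′ mRNA kit, and with a 3′ kit counts would not grow with length, so these orders hold only if fragments came from whole transcripts.

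The comparison of the genotypes asks whether RNA of the matrix-remodelling enzymes differed in adipose tissue that carries the Ebf2 stop codon. None of the 52 genes passed an adjusted p under 0.05 with a fold change above 1.5 in edgeR's quasi-likelihood test, where 3 genes of 32664 did (0.00918%). Ebf2 itself did not pass in that test either, at a log2 fold change of -0.81 with an SE of 0.0762 (edgeR, adjusted p = 0.0596). Its adjusted p was 0.0997 in limma-voom and 1.23e-13 in DESeq2, so the absence of calls in edgeR does not exclude differences of that size. DESeq2 also called 0 of the 48 genes to which it gave an adjusted p (0.610% of 16078 genes), and limma-voom 0 of 52 (0.0122%), and DESeq2 with no threshold on the fold change also called 0 of 48 (1.18% of 16078 genes). At an unadjusted p under 0.05, edgeR counted 2 of the 52, Lox on the higher side (1.68% of all genes) and Mmp15 on the lower side (3.09%). DESeq2 counted 6 (4.87% of all genes), with Adamts8, Adamts20, Adamtsl2, and Adamtsl3 beside Lox and Mmp15, and limma-voom 2, Lox and Adamtsl3 (5.38%). The 3 mice of one genotype all lay above the other genotype for 5 genes, which is 9.62% of the set and 10.8% of all genes tested. Without the TMM factors, which scale the library sizes, the count was 11 higher (21.2% of the set, where 6.72% of all genes tested were) and 2 lower (3.85%, against 3.77%), in place of 3 and 2. With these factors, Lox, Mmp16, and Adamts20 were those with the E165X/+ mice above (5.09% of all genes), and Mmp15 and Adamtsl3 those with the Ebf2+/+ mice above (5.75%).

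Fitted log2 fold changes were above 0 for 36 of the 52 genes, where 52.1% of all genes were. Among the better counted genes, those with no library under 10 counts, they were above 0 for 34 of 49, or 69.4%, where 56.1% of 18905 such genes were. The median was 0.12 for the set and 0.014 for all genes. By family the median log2 fold change was 0.044 for Mmp, 0.16 for Timp, 0.18 for Adamts, 0.16 for Adamtsl, and 0.12 for Lox genes. Without the second Ebf2+/+ mouse the median was 0.021 for the 52 genes, -0.049 for Mmp, 0.07 for Timp, 0.024 for Adamts, and 0.027 for Lox genes, and without the third E165X/+ mouse it was 0.033 for Adamtsl genes. Other single mice moved it upward, to 0.24 for Lox genes without the first Ebf2+/+ mouse, to 0.25 for Adamtsl genes without the first E165X/+ mouse, and to 0.097 for Mmp genes without the third Ebf2+/+ mouse. For 27 of the 49 better counted genes the 95% interval of the difference lay inside a 1.5-fold change in either direction. The interval of 15 reached a 1.5-fold higher level and that of 8 a 1.5-fold lower level, with 1 gene, Adamts19 (named after its values were seen), reaching both, so for these the 3 mice per genotype did not limit the difference to that size.

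**Figure D1:**
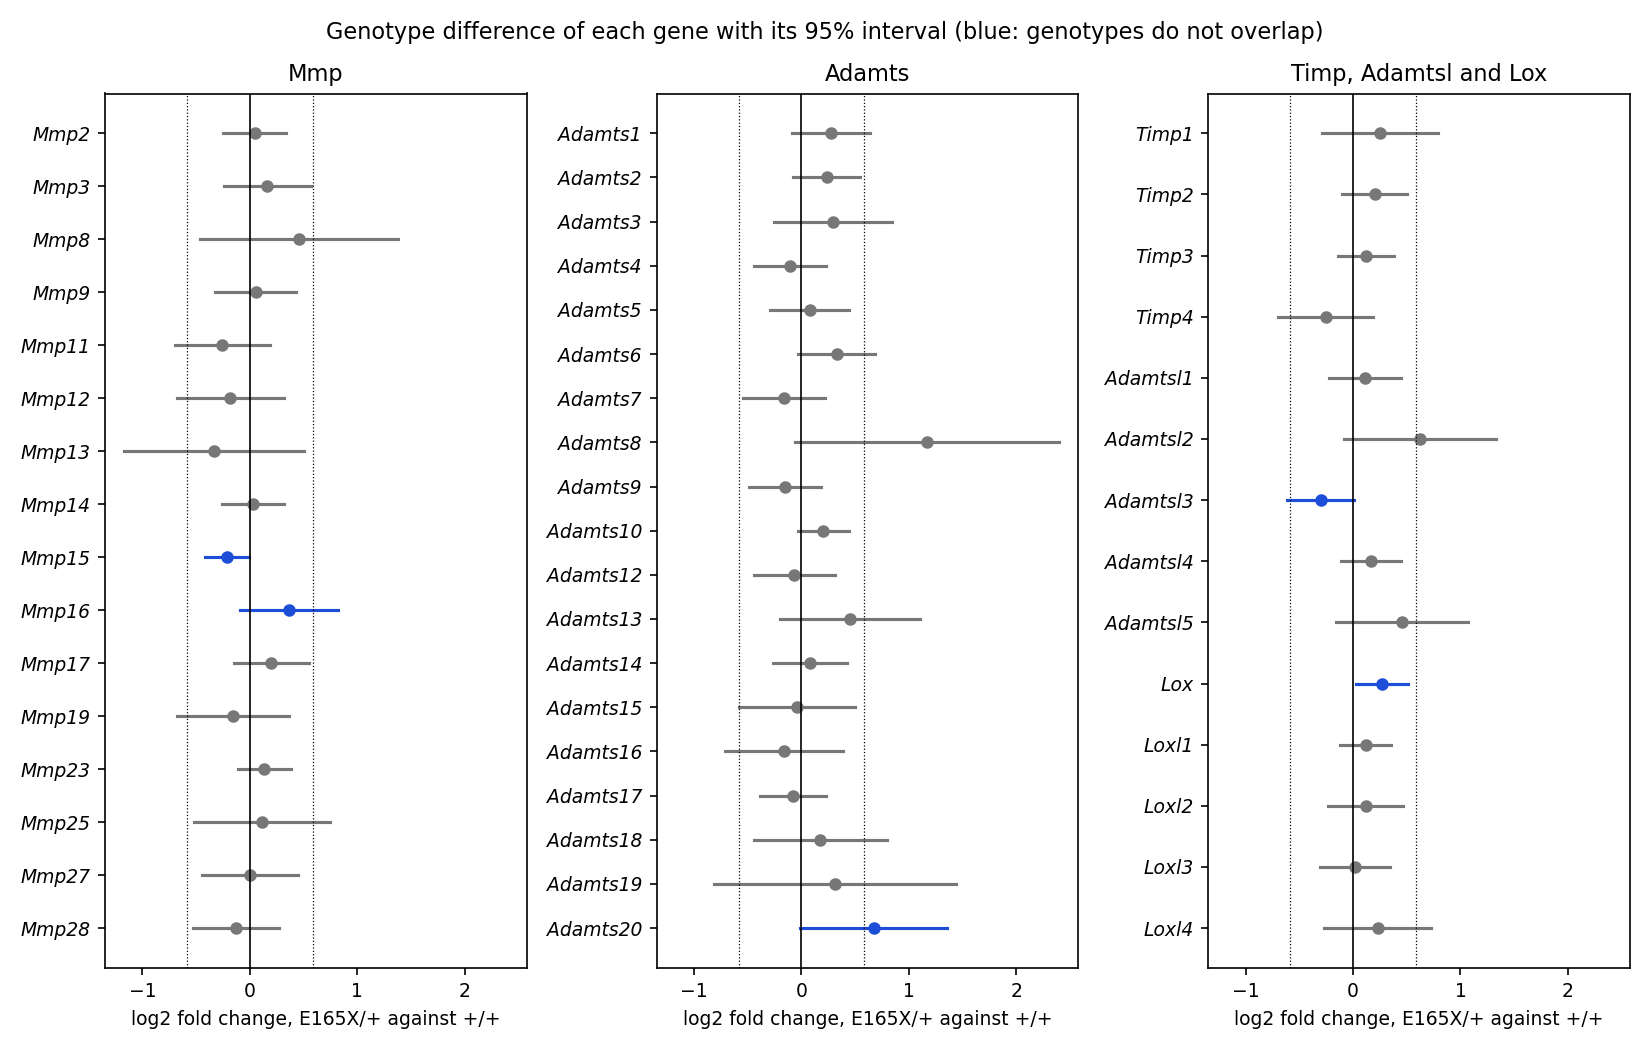
Log2 fold change of the 49 better counted genes (no library under 10 counts), Ebf2 E165X/+ against Ebf2+/+, as points with 95% intervals from edgeR's fit; dotted lines mark a 1.5-fold change. Most intervals cross 0, those of Lox and Mmp15 do not, and the 5 genes in blue are those without overlap between the genotypes.

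Among the lysyl oxidases, Lox had the lowest unadjusted p of the 52 genes in edgeR and in limma-voom, while in DESeq2 it was Adamts8 (unadjusted p = 0.0135). Lox, which encodes the founding enzyme of the family and oxidizes collagen and elastin, stood at 121, 108, and 123 CPM in Ebf2+/+ and at 141, 126, and 156 CPM in E165X/+ mice. Every E165X/+ mouse lay above every Ebf2+/+ mouse, by a narrow margin between 123 and 126 CPM. The means were 117 ± 8.45 and 141 ± 14.9 CPM (SD, n = 3 each), a log2 fold change of 0.27 with an SE of 0.103 and a 95% interval of 0.031 to 0.51 (edgeR, unadjusted p = 0.0318, adjusted p = 0.783). The log2 fold change was 0.19 without the muscle-rich E165X/+ mouse (unadjusted p = 0.0813) and 0.20 without the second Ebf2+/+ mouse (unadjusted p = 0.134). The unadjusted p in edgeR was also above 0.05 without the first Ebf2+/+ (0.0546), the third Ebf2+/+ (0.0581), or the first E165X/+ mouse (0.0705). It was 0.0149 without the second E165X/+ mouse.

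The other lysyl oxidases had higher means in E165X/+ mice too, and their groups overlapped. Loxl1, known for its part in elastic fibre assembly, averaged 141 ± 16.0 CPM in Ebf2+/+ and 153 ± 6.61 in E165X/+ mice. Loxl2, which cross-links collagen IV of basement membranes, had 201, 139, and 171 CPM against 181, 166, and 207 CPM. Its mean difference was a log2 fold change of 0.12 with an SE of 0.15, and it turned to -0.021 without the second Ebf2+/+ mouse. Loxl3 stood at 17.4 ± 2.80 and 17.6 ± 1.83 CPM, and Loxl4 at 3.17 ± 0.807 and 3.71 ± 0.333 CPM. The summed level of the 5 genes was 504, 389, and 454 CPM in Ebf2+/+ and 503, 467, and 531 CPM in E165X/+ mice, or 449 ± 57.4 and 500 ± 32.0, with overlap, and Loxl2 made up 37.3% of it. Loxl3 shares 535 bases of exon with Htra2 on the opposite strand and Loxl2 301 bases with Gm27177. Since the strand setting of the counting is not given in the sources used here, reads of such partners cannot be told apart.

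**Figure D2:**
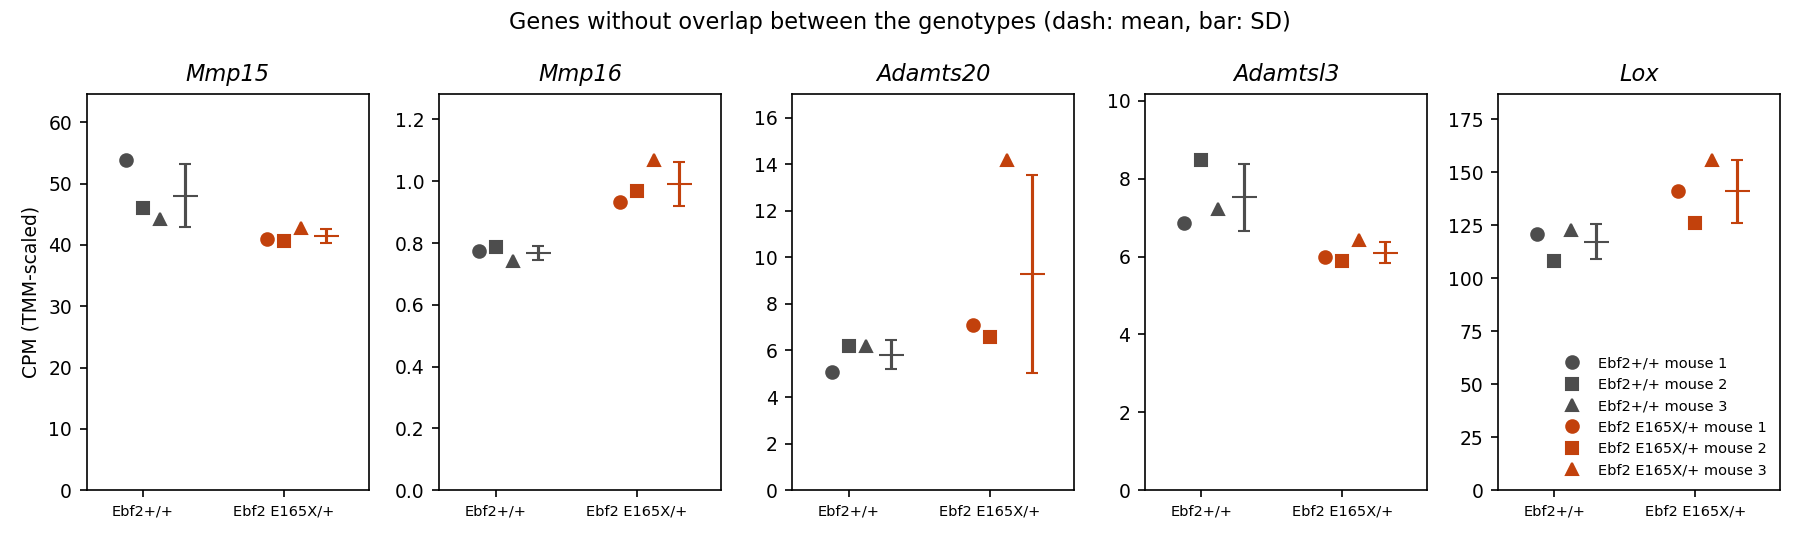
CPM (TMM-scaled, linear axes from 0) of the 5 genes without overlap between the genotypes, 1 point per mouse, with the mean as a dash and the SD as a bar. Lox, Mmp16, and Adamts20 are higher in the 3 E165X/+ mice, Mmp15 and Adamtsl3 lower, and the third E165X/+ mouse sets the mean of Adamts20.

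The abundant collagen-cutting metalloproteinases had close means in the 2 genotypes. Mmp2 (gelatinase A, chr8:92827291-92853420), which cuts denatured collagen and basement membrane, had 260, 195, and 245 CPM in Ebf2+/+ and 231, 260, and 230 CPM in E165X/+ mice. The means were 233 ± 33.8 and 240 ± 17.0 CPM, and the log2 fold change of 0.044 had a 95% interval of -0.25 to 0.34. Mmp14, the membrane-bound collagenase that activates the Mmp2 proenzyme, had 169, 138, and 153 CPM against 155, 179, and 136 CPM, a log2 fold change of 0.032 with an interval of -0.26 to 0.32. For both genes the interval left out a 1.5-fold change in either direction.

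Mmp15 (chr8:95352268-95375080), another membrane-anchored metalloproteinase, was the gene with the lowest unadjusted p on the lower side in edgeR, while in DESeq2 and limma-voom this was Adamtsl3. It had 53.9, 46.0, and 44.2 CPM in Ebf2+/+ and 40.9, 40.6, and 42.7 CPM in E165X/+ mice. The groups did not overlap, and the Ebf2+/+ mice spread more widely, with the first of them highest. The means were 48.0 ± 5.14 and 41.4 ± 1.16 CPM, with a log2 fold change of -0.22, an SE of 0.0878, and a 95% interval of -0.42 to -0.011 (edgeR, unadjusted p = 0.0414, adjusted p = 0.783). It was -0.14 without the first Ebf2+/+ mouse (unadjusted p = 0.0863), and -0.24 without the muscle-rich mouse. The unadjusted p was 0.0622 in limma-voom, 0.0708 with the replicate number as a block, and 0.104 and 0.105 without the first and the second E165X/+ mouse. Mmp16 (chr4:17852893-18119145), also membrane-anchored, lay in the opposite direction at a far lower level. It had 93, 83, and 92 counts in Ebf2+/+ and 108, 121, and 137 in E165X/+ mice. On the CPM scale this was 0.768 ± 0.0232 and 0.991 ± 0.0707, a log2 fold change of 0.37 with an SE of 0.196 (unadjusted p = 0.101, adjusted p = 0.783).

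Members that are typical of leukocytes varied with single mice. Mmp8, the collagenase of neutrophil granules, had 168, 68, and 223 counts in Ebf2+/+ and 235, 150, and 263 counts in E165X/+ mice, or 1.28 ± 0.586 and 1.76 ± 0.486 CPM. Mmp9 (gelatinase B), stored in neutrophils and made by macrophages, had 15.6, 16.0, and 18.0 CPM against 16.1, 14.0, and 21.3 CPM, with overlap. The third E165X/+ mouse was highest in both. The 10 neutrophil markers summed to 53.6, 54.3, and 74.9 CPM in Ebf2+/+ and 78.4, 68.3, and 106 CPM in E165X/+ mice. They were led by S100a9, none was at 0, and 10 of 10 had a log2 fold change above 0, where 52.1% of all genes did. In edgeR 0 of the 10 passed the adjusted threshold and 3 had an unadjusted p under 0.05 on the higher side (1.68% of all genes), and DESeq2 called 1, Ltf (lactoferrin of neutrophil granules, adjusted p = 0.0342), named after its values were seen. Their part in the values of Mmp8 and Mmp9 was not tested. Mmp12, the macrophage elastase, averaged 1.21 ± 0.136 and 1.07 ± 0.164 CPM.

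Stromelysin and collagenase genes lie side by side on chromosome 9, where Mmp13, Mmp12, Mmp3, Mmp8, Mmp27, Mmp20, and Mmp7 span chr9:7272514-7699585 (GRCm38), together with Mmp1a, Mmp1b, and Mmp10, which had under 10 counts. Of these 7 members Mmp3, stromelysin 1, was the most abundant per length, at 21.7 CPM per kilobase in Ebf2+/+ mice. It had 40.2, 31.7, and 45.2 CPM in Ebf2+/+ and 35.6, 42.5, and 52.9 CPM in E165X/+ mice, with overlap, and its log2 fold change of 0.16 was 0.002 without the third E165X/+ mouse. Mmp13, collagenase 3, stood at 0.113 CPM per kilobase in Ebf2+/+ mice, Mmp12 at 0.168, and Mmp7, matrilysin, which was named for its place in this row, at 0.0578. Mmp13 had 41, 26, and 39 counts in Ebf2+/+ and 16, 34, and 39 in E165X/+ mice. The median log2 fold change of the 7 was 0.00.

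The sequence before the start of 33 of the 52 genes was found among 32851 RefSeq promoters of GRCm38.p6, each 250 bases before to 50 after a start. The AP-1 word TGANTCA, which reads the same on both strands, was in the window of 5 of the 33, Mmp3, Mmp7, Mmp12, Mmp13, and Mmp20, and in that of 8.97% of all 27025 genes with a promoter. The TATA word TATAAA, searched on both strands, was in the window of 8 of the 33 and in that of 15.7% of these genes. All 5 genes with the AP-1 word lie in the chromosome 9 row. The last 100 bases before the start are shown for the 4 of them best counted, with these words in capitals, and in Mmp12 only the AP-1 word falls in this stretch, since its TATA word lies 5 to 10 bases after the start. All are on the plus strand, Mmp12 is shown at the second of its listed starts, and the 4 are chosen because these genes carry the same word and yet differ widely in level. The last 100 bases before the first listed start of Mmp12 (chr9:7344297-7344396) hold neither word. Mmp7 is shown at the first of its listed starts, and the last 100 bases before its second (chr9:7692241-7692340) hold neither word.
Mmp3, chr9:7445722-7445821: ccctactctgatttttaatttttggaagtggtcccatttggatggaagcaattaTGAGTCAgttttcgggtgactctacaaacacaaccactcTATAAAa
Mmp13, chr9:7272414-7272513: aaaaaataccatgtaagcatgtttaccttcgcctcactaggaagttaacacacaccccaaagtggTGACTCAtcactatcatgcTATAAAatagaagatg
Mmp12, chr9:7347274-7347373: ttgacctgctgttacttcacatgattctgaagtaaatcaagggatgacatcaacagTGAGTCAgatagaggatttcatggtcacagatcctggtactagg
Mmp7, chr9:7691990-7692089: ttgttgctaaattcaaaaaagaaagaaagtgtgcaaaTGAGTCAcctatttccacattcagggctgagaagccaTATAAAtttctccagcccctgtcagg
The AP-1 word ends 40 bases before the start in Mmp3, 29 in Mmp13, 38 in Mmp12, and 57 in Mmp7. A word match is a description and not a bound site.

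The EBF-type word, TCCC and GGGA with 2 bases of any kind between, which is the palindrome that the EBF factors are known to bind, was in the window of 1.06% of these genes and of 1 of the 33, Mmp14. The 60 bases that hold it are shown because Mmp14 was the only one of the 33 with this word, at positions -183 to -174 from the start, with the word in capitals.
Mmp14, chr14:54431390-54431449: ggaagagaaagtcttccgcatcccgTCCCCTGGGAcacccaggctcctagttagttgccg
The Mmp14 values of the 2 genotypes, given above, overlapped. Mmp14 and Loxl2 (chr14:69609068-69695834) share chromosome 14 with Ebf2 (chr14:67233292-67430918), at 12.8 and 2.18 megabases from it.

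Of the other proteases of the family, Mmp19, an enzyme with a broad range of substrates, had 74.9, 45.3, and 41.4 CPM in Ebf2+/+ and 51.3, 53.1, and 40.7 CPM in E165X/+ mice. The first Ebf2+/+ mouse stood alone there, and the log2 fold change turned from -0.16 to 0.14 without it. Mmp11, stromelysin 3, averaged 6.52 ± 1.55 and 5.46 ± 0.457 CPM, with the third Ebf2+/+ mouse at 8.31. Mmp19 shares 789 bases of exon with Tmem198b and Mmp11 155 bases with Chchd10, both on the opposite strand. The Mmp genes together summed to 687, 539, and 623 CPM in Ebf2+/+ and 606, 662, and 594 CPM in E165X/+ mice, or 616 ± 74.2 and 621 ± 36.0, and Mmp2 held 38.3% of the sum.

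The inhibitors were led by Timp2 and Timp3. Timp2 (chr11:118301069-118355740), which both blocks metalloproteinases and takes part in the activation of Mmp2 by Mmp14, had 441, 348, and 435 CPM in Ebf2+/+ and 438, 468, and 505 CPM in E165X/+ mice. The first E165X/+ mouse fell among the Ebf2+/+ mice and the other two lay above them. The means were 408 and 470 CPM, a log2 fold change of 0.20 with an SE of 0.130 (unadjusted p = 0.158, adjusted p = 0.783), which came to 0.089 without the second Ebf2+/+ mouse. Timp3, which is held in the matrix and also blocks ADAM and ADAMTS enzymes, averaged 313 ± 29.6 and 341 ± 25.4 CPM. Timp4, the inhibitor known to be abundant in adipose tissue and heart, had 35.2, 36.2, and 29.2 CPM against 34.1, 20.1, and 30.2 CPM. The second E165X/+ mouse was the low one. Timp1, the inhibitor induced in inflamed tissue, had 5.29, 3.20, and 3.14 CPM against 5.07, 4.48, and 4.30 CPM, so the first Ebf2+/+ mouse was the highest of the 6. Timp3 lies inside Syn3 and Timp4 inside Syn2 on the opposite strand, with 1733 and 90 shared exon bases.

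Summed over the family, Timp levels were 788, 676, and 814 CPM in Ebf2+/+ and 793, 831, and 906 CPM in E165X/+ mice, of which Timp2 made up 54.8%. The ratio of summed Mmp to summed Timp CPM was 0.872, 0.798, and 0.765 in Ebf2+/+ and 0.765, 0.796, and 0.656 in E165X/+ mice. The means of 0.812 ± 0.0546 and 0.739 ± 0.0736 differed by about the spread between mice. The third E165X/+ mouse had the lowest ratio of all.

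**Figure D3:**
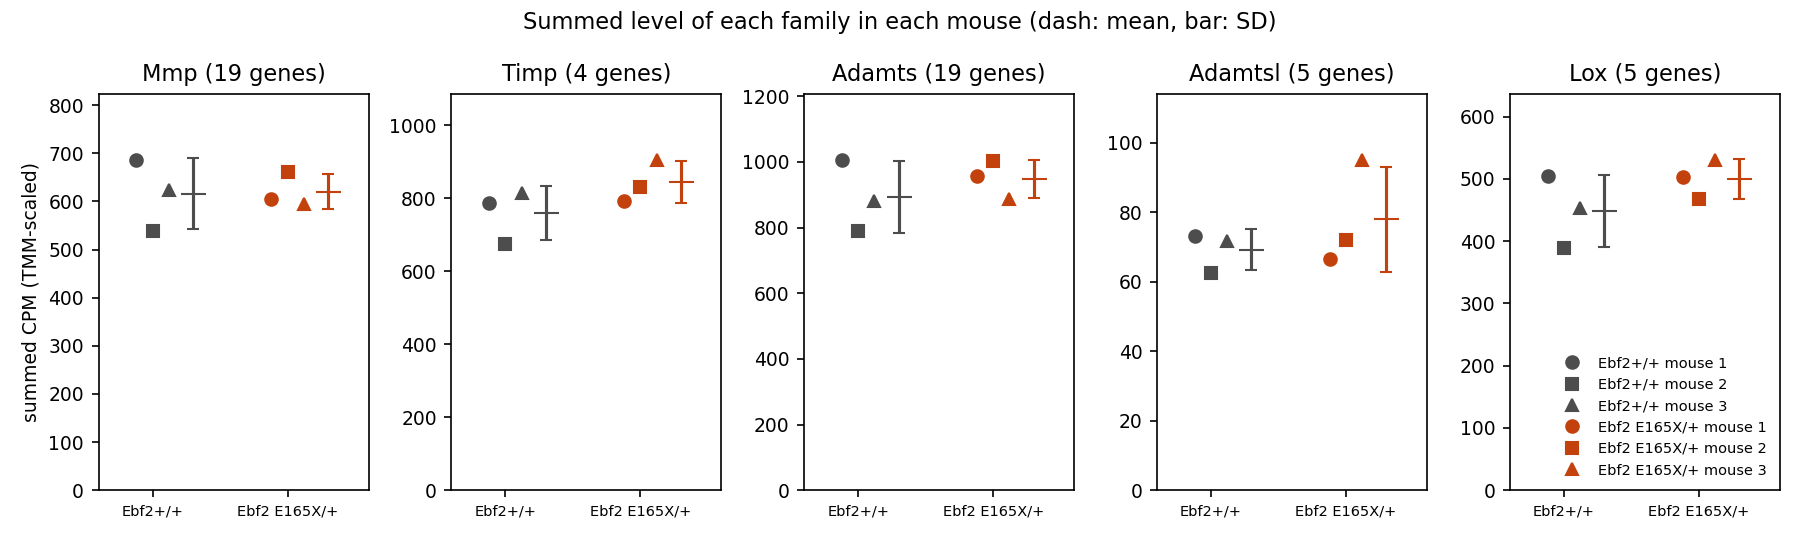
Summed CPM (TMM-scaled, linear axes from 0) of each family in each mouse, with the mean as a dash and the SD as a bar. The genotypes overlap in all 5 families, and the second Ebf2+/+ mouse is the lowest of the 6 in each.

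Among the ADAMTS proteases, Adamts2 (chr11:50602084-50807573), which cuts the N-propeptide from fibrillar procollagens, had the most counts. It stood at 244, 177, and 190 CPM in Ebf2+/+ and at 231, 256, and 233 CPM in E165X/+ mice. The first Ebf2+/+ mouse reached the level of the E165X/+ mice and the other two stayed below. The log2 fold change was 0.24 with an SE of 0.134 (unadjusted p = 0.118, adjusted p = 0.783), and it was 0.37 without the first Ebf2+/+ mouse (unadjusted p = 0.00634, adjusted p = 0.908) and 0.13 without the second.

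The proteoglycan-cutting members lay on both sides of 0. Adamts1 averaged 59.9 ± 9.37 CPM in Ebf2+/+ and 72.4 ± 13.0 in E165X/+ mice, and the third E165X/+ mouse, at 87.4 CPM, was the highest. Its log2 fold change was 0.27 with all mice and 0.12 without that one. Adamts5, aggrecanase 2, had 163, 125, and 145 CPM against 125, 184, and 148 CPM. Adamts4, aggrecanase 1, averaged 17.4 ± 2.45 and 16.1 ± 2.26 CPM. Adamts9, which cuts versican, averaged 83.8 ± 8.50 and 75.5 ± 13.6 CPM, and Adamts15, which cuts versican and aggrecan, 48.9 ± 16.5 and 47.6 ± 7.24 CPM. Adamts12, known to cut cartilage oligomeric matrix protein, averaged 208 ± 20.5 and 199 ± 43.7 CPM. Adamts10, an enzyme tied to fibrillin microfibrils, had 64.2, 62.4, and 71.6 CPM against 71.8, 86.3, and 70.2 CPM. Adamts17, also tied to microfibrils, varied little, at 4.69 ± 0.224 and 4.45 ± 0.132 CPM. The 19 Adamts genes summed to 893 ± 108 and 948 ± 57.9 CPM, and Adamts2 held 24.1% of the sum.

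Among the 49 better counted genes, the 3 with the largest fitted differences, Adamts8, Adamts20, and Adamtsl2, were all high in the muscle-rich mouse. Adamts20 (chr15:94270163-94465418), a versican-cutting enzyme known for its role in pigmentation, had 5.09, 6.19, and 6.19 CPM in Ebf2+/+ and 7.10, 6.57, and 14.2 CPM in E165X/+ mice, without overlap. Its log2 fold change was 0.67 with an SE of 0.295 (unadjusted p = 0.0540, adjusted p = 0.783) and 0.23 without the third E165X/+ mouse (unadjusted p = 0.200). Adamts8 (chr9:30942562-30963838), named after its values were seen, had 0.816, 1.62, and 1.46 CPM against 1.57, 1.67, and 5.51 CPM. Its value in the third E165X/+ mouse was 3.29 times the highest of the others, and the log2 fold change dropped from 1.17 to 0.32 without it.

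Adamts8 and Adamts20 were joined in this by the Adamts-like genes Adamtsl2 and Adamtsl5, whose values in the same mouse were 1.85 and 1.88 times the highest of the others. Adamtsl5, a secreted protein that binds microfibrils, had 13.9, 11.4, and 13.4 CPM in Ebf2+/+ and 12.9, 13.9, and 26.2 CPM in E165X/+ mice. Its log2 fold change was 0.45 with all mice and 0.057 without the third E165X/+ mouse. Adamtsl2, also named after its values were seen, had 1.56, 1.35, and 1.23 CPM against 1.54, 1.69, and 3.13 CPM, a log2 fold change of 0.62 that came to 0.23 without this mouse. These 4 genes were 8.16% of the 49 better counted members, and 4.98% of all genes with as many counts exceeded the other mice by more than 1.5 times in this library. The skeletal muscle markers of this mouse are given above, and their part in these 4 genes was not tested.

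**Figure D4:**
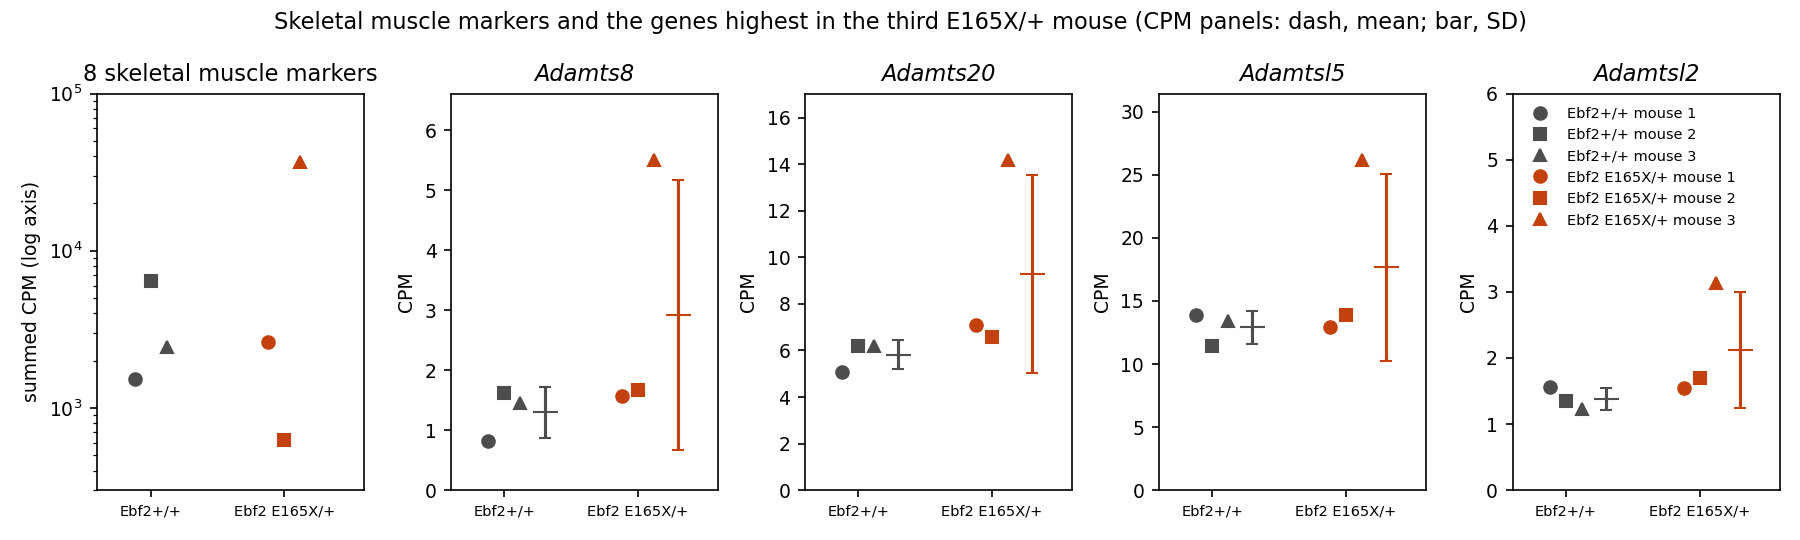
Summed CPM of 8 skeletal muscle markers (left, log axis) and CPM of Adamts8, Adamts20, Adamtsl5, and Adamtsl2 (linear axes from 0), 1 point per mouse, with the mean as a dash and the SD as a bar in the 4 gene panels. The third E165X/+ mouse is the highest in every panel, at 36767 CPM for the markers.

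The remaining Adamts-like genes encode proteins of the microfibril and matrix without protease activity. Adamtsl3 (chr7:82335694-82614450) had 6.87, 8.49, and 7.21 CPM in Ebf2+/+ and 6.00, 5.89, and 6.42 CPM in E165X/+ mice. All E165X/+ values lay below all Ebf2+/+ values, and the second Ebf2+/+ mouse was the highest. The log2 fold change was -0.30 with an SE of 0.133 and a 95% interval of -0.61 to 0.009 (edgeR, unadjusted p = 0.0552, adjusted p = 0.783; DESeq2, unadjusted p = 0.0224, adjusted p = 0.432; limma-voom, unadjusted p = 0.0453). Adamtsl1, the most counted of the 5, averaged 26.7 ± 4.57 and 28.8 ± 3.24 CPM, and Adamtsl4, known for its role in the lens zonule, 20.8 ± 1.12 and 23.3 ± 3.61 CPM. The log2 fold change of Adamtsl4 was 0.16 with all mice and 0.033 without the third E165X/+ mouse.

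The 17 members not in the list of named genes had log2 fold changes between -0.16 and 1.17 and unadjusted p between 0.0598 and 0.999. The upper end is Adamts8. Mmp20, with 10 counts in all, and Mmp24, with 13, were too low for a comparison at this depth.

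Single mice were low or high for many of the genes at once. The second Ebf2+/+ mouse was the lowest of the 6 for 21 of the 49 better counted genes, where it was the lowest for 16.3% of all genes with as many counts. The third E165X/+ mouse was the highest for 17 of the 49, against 23.6% of all such genes, and the first Ebf2+/+ mouse for 14, against 23.3%. Relative to the mean of the Ebf2+/+ mice, the median log2 level of the 52 genes came to 0.12, -0.16, and 0.043 for Ebf2+/+ animals, whereas the E165X/+ animals had 0.067, 0.12, and 0.11.

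The second Ebf2+/+ mouse was low for markers of stromal cells and macrophages, and its skeletal muscle markers, at 6391 CPM, were the highest after those of the third E165X/+ mouse, against 621 to 2611 CPM in the other 4. The 9 markers of adipocyte progenitors and fibroblasts, led by Dcn, summed to 2266, 1819, and 2198 CPM in Ebf2+/+ and 2225, 2406, and 2428 CPM in E165X/+ mice, so that the second Ebf2+/+ mouse was again the lowest. Macrophage markers, led by Lyz2, were also lowest in that mouse, at 1455 CPM against 1800 to 2005 CPM in the others. The 8 adipocyte markers, led by Fabp4, summed to 11566, 12350, and 9788 CPM against 10523, 9018, and 6814 CPM. All 8 had a log2 fold change below 0, where 52.1% of all genes were above 0. On the lower side 2 of the 8 had no overlap (5.75% of all genes). In edgeR 0 of the 8 had an unadjusted p under 0.05, while in DESeq2 Fabp4 did (unadjusted p = 0.0265, adjusted p = 0.469). The lowest sum was in the muscle-rich mouse. Mast cell markers, led by Kit, summed to 96.2, 80.4, and 104 CPM in Ebf2+/+ and 122, 113, and 124 CPM in E165X/+ mice, without overlap. Kit itself had 27.2, 22.1, and 26.1 CPM against 23.8, 25.6, and 22.5 CPM, with overlap. A log2 fold change above 0 was found for 6 of the 7 (52.1% of all genes). Of the 7, edgeR counted 4 at an unadjusted p under 0.05 on the higher side (1.68% of all genes), and DESeq2 called 1, the mast cell protease gene Mcpt4 (adjusted p = 9.46e-06; edgeR, adjusted p = 0.229), named after its values were seen. The 8 markers of B and T lymphocytes, led by Ms4a1, summed to 383, 562, and 581 CPM against 601, 673, and 606 CPM, without overlap. All 8 had a log2 fold change above 0 (52.1% of all genes), 0 of them at an unadjusted p under 0.05 in edgeR. On the higher side 3 of the 8 had no overlap (5.09% of all genes). Of the markers of endothelial cells (7), smooth muscle and pericytes (7), epithelium (7), Schwann cells (6), and cartilage and bone (6), edgeR counted 0 at an unadjusted p under 0.05. The endothelial markers summed to 1226, 1181, and 1140 CPM against 1100, 1136, and 938 CPM, without overlap. On the lower side 2 of the 7 endothelial and 2 of the 7 smooth muscle and pericyte markers had no overlap (5.75% of all genes). On the higher side 1 of the 6 cartilage and bone markers had none (5.09%). The epithelial markers varied widely between mice. They summed to 145, 12.5, and 61.3 CPM in Ebf2+/+ and 57.5, 8.63, and 14.8 CPM in E165X/+ mice, with the first Ebf2+/+ mouse highest. No marker of the progenitor, macrophage, adipocyte, mast cell, and lymphocyte lists was at 0 in any library, and the part of these cell types in the levels of the matrix genes was not tested. In bulk tissue fewer cells of a type and less RNA per cell cannot be told apart.

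**Figure D5:**
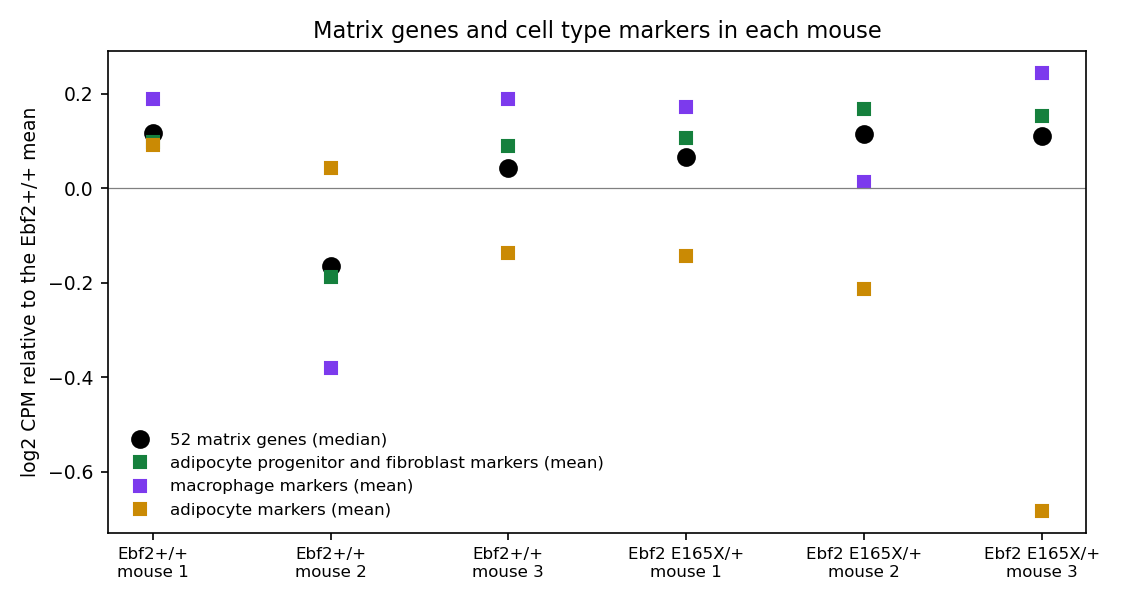
Median log2 CPM of the 52 matrix genes (circles) and mean log2 CPM of 3 marker lists (squares) in each mouse, relative to the mean of the Ebf2+/+ mice. The second Ebf2+/+ mouse is low for the matrix genes (-0.16), the progenitor and fibroblast markers, and the macrophage markers, and the adipocyte markers are lowest in the third E165X/+ mouse.

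Genes that act beside these enzymes were grouped in 9 lists, and none of the lists held a gene called by edgeR or DESeq2. At an unadjusted p under 0.05, edgeR counted 1 of 12 ADAM sheddase genes on the higher side, 1 of 12 genes of MMP activation and restraint on the higher side, 3 of 16 elastic fibre genes on the higher side, and 1 of 12 ADAMTS substrate genes on the lower side. It counted 0 of 10 plasminogen system genes, 0 of 7 astacin and procollagen processing genes, 0 of 12 cathepsin genes, 0 of 13 collagen hydroxylation and cross-linking genes, and 0 of 14 collagens. Of all genes 1.68% were counted at this level on the higher side, 3.09% on the lower side, and 4.77% in all.

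The elastic fibre list, which holds elastin and the microfibril proteins around it, had 13 of its 16 genes at a log2 fold change above 0, where 52.1% of all genes and 56.1% of the better counted ones were, and a median of 0.13. The second Ebf2+/+ mouse was the lowest for this list too, with a sum of 1612 CPM against 1864 to 2148 CPM. Eln, which encodes elastin, had 434, 321, and 412 CPM in Ebf2+/+ and 446, 494, and 540 CPM in E165X/+ mice. The groups were separated by the step from 434 to 446 CPM, and the log2 fold change was 0.34 with an SE of 0.146 (unadjusted p = 0.0489, adjusted p = 0.783). It was 0.21 without the second Ebf2+/+ mouse (unadjusted p = 0.171). Ltbp1, a microfibril protein that holds latent TGF-beta, averaged 41.3 ± 2.48 and 48.3 ± 2.42 CPM (edgeR, unadjusted p = 0.0183, adjusted p = 0.783), with an unadjusted p of up to 0.0875 when 1 mouse was left out. Mfap4 had 17.5, 13.9, and 14.7 CPM against 19.0, 20.7, and 61.9 CPM, with the third E165X/+ mouse far above the rest, and its log2 fold change of 1.14 came to 0.37 without that mouse. Fbn1, named after its values were seen, stood at 537 ± 119 and 588 ± 23.2 CPM.

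Of the 12 genes of MMP activation and restraint, 7 had a log2 fold change above 0 and 5 below. Pcsk5, a proprotein convertase, averaged 32.3 ± 1.80 CPM in Ebf2+/+ and 36.7 ± 1.71 in E165X/+ mice (edgeR, unadjusted p = 0.0411, adjusted p = 0.783). Its unadjusted p was 0.0686 in DESeq2, 0.0620 in limma-voom, and up to 0.131 in edgeR with 1 mouse left out. Reck, a membrane-anchored inhibitor of metalloproteinases, had 33.9, 26.2, and 32.8 CPM against 35.6, 34.9, and 35.3 CPM, without overlap (unadjusted p = 0.113, adjusted p = 0.783). Furin, the convertase that activates Mmp14 and other proenzymes, was lower in all E165X/+ mice, with 117, 86.1, and 90.5 CPM against 81.6, 85.8, and 80.8 CPM (unadjusted p = 0.0817, adjusted p = 0.783), and it was named after its values were seen. In the ADAM list, Adam33 averaged 19.8 ± 1.84 and 23.7 ± 1.80 CPM (edgeR, unadjusted p = 0.0362, adjusted p = 0.783), with an unadjusted p of up to 0.146 when 1 mouse was left out. Ncan, a proteoglycan core protein and also named after its values were seen, was the ADAMTS substrate gene on the lower side, with 361, 103, and 154 counts against 74, 99, and 134 counts, where the groups overlapped. Its log2 fold change was -1.08 (edgeR, unadjusted p = 0.0425, adjusted p = 0.783). With 1 mouse left out it ran from -1.38 to -0.44, with an unadjusted p of up to 0.175. The unadjusted p was 0.0104 in DESeq2 and 0.0782 in limma-voom.

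Bmp1, the procollagen C-proteinase, which also trims the lysyl oxidase proenzyme, averaged 113 ± 17.4 and 122 ± 6.27 CPM. Ctsk, the collagen-cutting cathepsin K, averaged 53.1 ± 4.21 and 58.4 ± 4.93 CPM. Col1a1, the main fibrillar collagen substrate, had 5280, 3786, and 4961 CPM against 5095, 4841, and 4834 CPM, and the collagens as a list were split, with 6 of 14 above 0 and 8 below. The second Ebf2+/+ mouse again had the lowest collagen sum, at 22035 CPM against 26253 to 30068 CPM.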

How the data were processed

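IWAT of 3 Ebf2+/+ and 3 Ebf2 E165X/+ mice was sequenced, with each mouse in a library of its own. Deposited values are the authors' expected counts per Ensembl gene, not scaled for library size, and all values were whole numbers, so rounding changed none. The submitters' processing notes name cutadapt 4.8, FastQC 0.11.8, STAR 2.7.8a, RSEM 1.3.3, and MultiQC 1.20 with GRCm38. The labels name an NEB kit and the study's methods a QuantSeq 3′ mRNA kit, and strand settings are not given in the sources used here.

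Genes with any count were fitted in R 4.3.3 with edgeR 4.0.16 (TMM, quasi-likelihood, genotype as the only term), with Benjamini-Hochberg adjustment over 32664 genes and calls at an adjusted p under 0.05 with a fold change above 1.5. The SE is the log2 fold change divided by the square root of the F statistic. Alternatives were DESeq2 1.42.0, limma-voom (limma 3.58.1), DESeq2's size factors, CPM without TMM factors, 2 filters on low counts, a replicate block, no threshold on the fold change, members with at least 10 counts in every library, the mean log2 CPM in place of a sum, and each mouse left out. DESeq2 with no threshold on the fold change was chosen after seeing the data. Log2 CPM used a prior count of 2. The fits were tested on simulated data, where each tool also called some genes that had not been changed, DESeq2 the most. The libraries held 106820505 counts or more, and p-values measure the spread between 3 mice per genotype. An exact permutation test of 3 against 3 cannot go below p = 0.1, so none was used.

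Members, lists, and the rule for named genes were chosen with earlier results of these data known. The rule names all Timp and Lox genes, the 3 most counted Mmp, Adamts, and Adamtsl genes, members with an unadjusted p under 0.05 or no overlap and at least 10 counts in every library, well-known family members, and from other lists up to 3 genes with both, plus Col1a1, Bmp1, Reck, and Ctsk. A further gene of the rule is not reported here. Gene positions, exon lengths, and overlaps came from GENCODE M21 (GRCm38), and promoters from RefSeq (GRCm38.p6).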

Additional observations from a re-analysis of the deposited data

How the results depend on the processing

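The number of the 52 genes that passed both thresholds was 0 under every alternative run, which covers DESeq2, DESeq2 with no threshold on the fold change (chosen after seeing the data), limma-voom, DESeq2's size factors, both filters on low counts, the replicate block, no threshold on the fold change, and each mouse left out. At an unadjusted p under 0.05, the count on the higher side was 1 in the reported fit, 4 in DESeq2, and 3 with the replicate block, and it ran from 0 to 4 with 1 mouse left out (0 without the second Ebf2+/+ mouse, 4 without the first E165X/+ mouse, and 2 or 3 without each of the others), where 1.68%, 1.62%, 1.40%, and 1.02% to 2.98% of all genes fitted were counted. The count on the lower side was 1 in the reported fit, 2 in DESeq2, with filterByExpr, and with at least 10 counts in every library, and 0 with the replicate block, and it ran from 0 to 1 with 1 mouse left out (0 without the first or the second E165X/+ mouse). Of all genes fitted these were 3.09%, 3.26% in DESeq2, 4.18% and 5.07% with the filters, 2.53% with the block, and 2.24% to 3.54% with 1 mouse left out. Genes without overlap on the higher side numbered 3, 11 without TMM factors, and 4 to 13 with 1 mouse left out (13 without the first Ebf2+/+ mouse, 9 without the third Ebf2+/+ or the first E165X/+ mouse, 5 without the second or the third E165X/+ mouse), where 5.09%, 6.72%, and 8.56% to 11.3% of all genes tested did. On the lower side they numbered 2, and 2 to 4 with 1 mouse left out (4 without the second or the third Ebf2+/+ mouse or the first or the second E165X/+ mouse), where 5.75%, and 9.14% to 10.5% of all genes tested did. With 1 mouse fewer, more genes can show no overlap.

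Of the 35 members named by the rule, 10 changed sign when 1 mouse was left out. Their log2 fold changes ran from -0.082 to 0.11 for Mmp2, -0.13 to 0.18 for Mmp9, -0.072 to 0.13 for Mmp14, -0.34 to 0.14 for Mmp19, -0.083 to 0.20 for Adamts5, -0.26 to 0.055 for Adamts12, -0.25 to 0.24 for Adamts15, -0.038 to 0.19 for Adamtsl1, -0.021 to 0.24 for Loxl2, and -0.10 to 0.13 for Loxl3. Adamts15 also changed sign with the replicate block, to 0.001. The cause of these changes was not tested. With 1 mouse left out, the median log2 fold change of the Mmp genes ran from -0.049 to 0.097 and that of the Adamts genes from 0.014 to 0.17, with the lowest without the second Ebf2+/+ and the second E165X/+ mouse, and without the third Ebf2+/+ mouse the Adamts median was 0.054.

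The replicate numbers in the labels were checked for pairing. Deviations of same-numbered mice correlated at r = 0.153, -0.278, and -0.162 over 18905 genes, which are not independent. These correlations cannot decide whether the numbers mark pairs, because with so few mice per genotype 1 library can shape several of them. The highest correlation was between the second Ebf2+/+ and the third E165X/+ mouse (r = 0.395). The block changed no call at the adjusted threshold. Depth limits the lowest members, and Mmp7, Mmp20, and Mmp24 had under 10 counts in at least 1 library.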
